A study of Mus musculus with 4 samples.

Results

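The proteasome genes were examined in nascent RNA of C2C12 myotubes, the fused muscle cells formed by a mouse myoblast line. Members were chosen by name, as genes whose symbol is Psm followed by a letter from a to g and a number, with at least 10 counts in every library. Of 48 genes with such a name 44 met this minimum, out of 23282 features in the table. All cells were steroid-deprived, and both groups were female C2C12 myotubes treated for 2 h. One group received vehicle and the other 1 µM dexamethasone, a synthetic glucocorticoid, with 2 libraries in each. RNA was taken from the chromatin pellet of isolated nuclei, which is meant to hold RNA still attached to its template rather than the cell's store of messenger RNA. The labels name both a stranded total RNA kit and a stranded mRNA kit. How far a count reflects only attached RNA is therefore not known. The labels name one cell line and do not say whether replicates were separate cultures, so a p-value here measures the spread between these libraries, which may be technical.

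The proteasome is the protease that degrades ubiquitin-tagged proteins. Its barrel-shaped core particle has outer rings of alpha subunits (Psma genes), which gate the entry, and inner rings of beta subunits (Psmb genes), some of which carry the proteolytic sites. A regulatory particle caps the core: a ring of ATPases (Psmc genes) unfolds the substrate, and non-ATPase subunits (Psmd genes) bind and remove ubiquitin. Other Psm genes encode alternative caps (Psme), an inhibitor or regulator (Psmf) and assembly chaperones of the core (Psmg, and for the regulatory particle some Psmd genes). In muscle, glucocorticoids are known to increase protein breakdown by the ubiquitin and proteasome route over longer exposures.

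The libraries held 19631435 to 88596296 counts. Of 8 myotube markers all were detected, with a summed level of 123368 and 42934 scaled CPM in vehicle replicates 1 and 2 and 118842 and 41877 in dexamethasone replicates 1 and 2, with Ttn the highest. Scaled CPM is the count relative to library size, with sizes adjusted by the TMM method. Values per group are given in the order replicate 1, replicate 2 throughout. The 5 markers of undifferentiated or dividing myoblasts summed to 53.1 and 56.9 in vehicle and to 38.3 and 44.3 in dexamethasone, with Pax7 the largest, and none was at 0. The 7 markers of other cell types summed to at most 5.10 in any library, and Epcam was at 0 in all 4. The median of the 5 myoblast markers was 8.69 and 6.59 in vehicle and 7.81 and 8.15 in dexamethasone, so by median the groups overlapped. The part of their lower sum in the results below was not tested. In bulk RNA, fewer cells making a transcript and less RNA per cell cannot be told apart.

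No proteasome gene passed the test after 2 h of dexamethasone. In counts simulated with the difference between replicate numbers found here, this test recovered 0 of 66 genes changed 4-fold. The 0 calls below therefore do not show that the genes were unchanged. Among the 44 members the number with an adjusted p under 0.05 was 0 in edgeR's quasi-likelihood test in either direction, beside 0.0376% of the 13285 genes tested, and 0 had an unadjusted p under 0.05, beside 5.78% of all genes. With DESeq2's Wald test the adjusted count was also 0, beside 2.18% of all genes called, and with limma-voom it was 0. With the replicate number as a block in edgeR it was again 0, beside 12.7%, while 6 members had an unadjusted p under 0.05, beside 25.7%. The log2 fold changes ran from -0.20 for Psmg3 to 0.29 for Psmd10. Their median was 0.05, and over all genes tested it was -0.00159. Of all genes tested, 25.5% had a log2 fold change farther from 0 than that of any member. A log2 fold change within 0.1 of 0 was found in 32 of 44 members (72.7%) and in 40.0% of all genes. The members had at least 10 counts in every library, a minimum not required of all genes tested, so these shares compare unlike sets. The smallest unadjusted p among the members was 0.189, for Psmd7, and the smallest adjusted p was 0.9999.

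**Figure D1:**
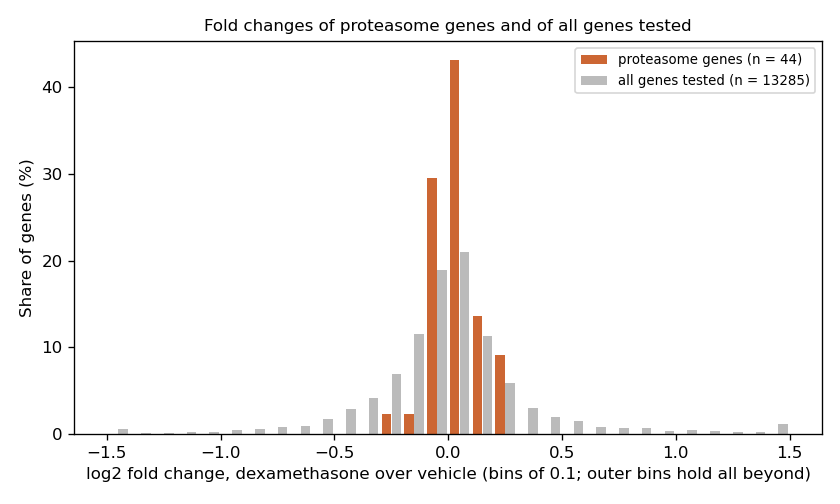
Share of genes (%, vertical axis) in bins of 0.1 of the log2 fold change, dexamethasone over vehicle (horizontal axis), for the 44 proteasome genes and for the 13285 genes tested; the outermost bins hold all values beyond. The proteasome genes lie between -0.20 and 0.29, while 25.5% of all genes lie outside the largest absolute value of any member. Only the proteasome genes were required to have at least 10 counts in every library.

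How far the fit by group alone bounds a change differed by gene. The 95% interval of the log2 fold change stayed within 1 of 0, a 2-fold change, in 34 members and reached beyond it in 10. It stayed within a 1.5-fold change in 20. The standard error ran from 0.116 for Psmb2 to 0.748 for Psmb6, with a median of 0.187, beside 0.230 over all genes tested. The 5 smallest standard errors belonged to Psmb2, Psma3, Psmb7, Psmd14 and Psmd1. The largest belonged to Psmb6, Psmb4, Psmc3, Psmd10 and Psmb5, each of which differed between replicate numbers, as described further on. These errors and intervals include that difference. With the replicate number as a block the standard error was 0.0599 for Psmc3, 0.171 for Psmd10, 0.215 for Psmb5 and 0.0560 for Psmb7.

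**Figure D2:**
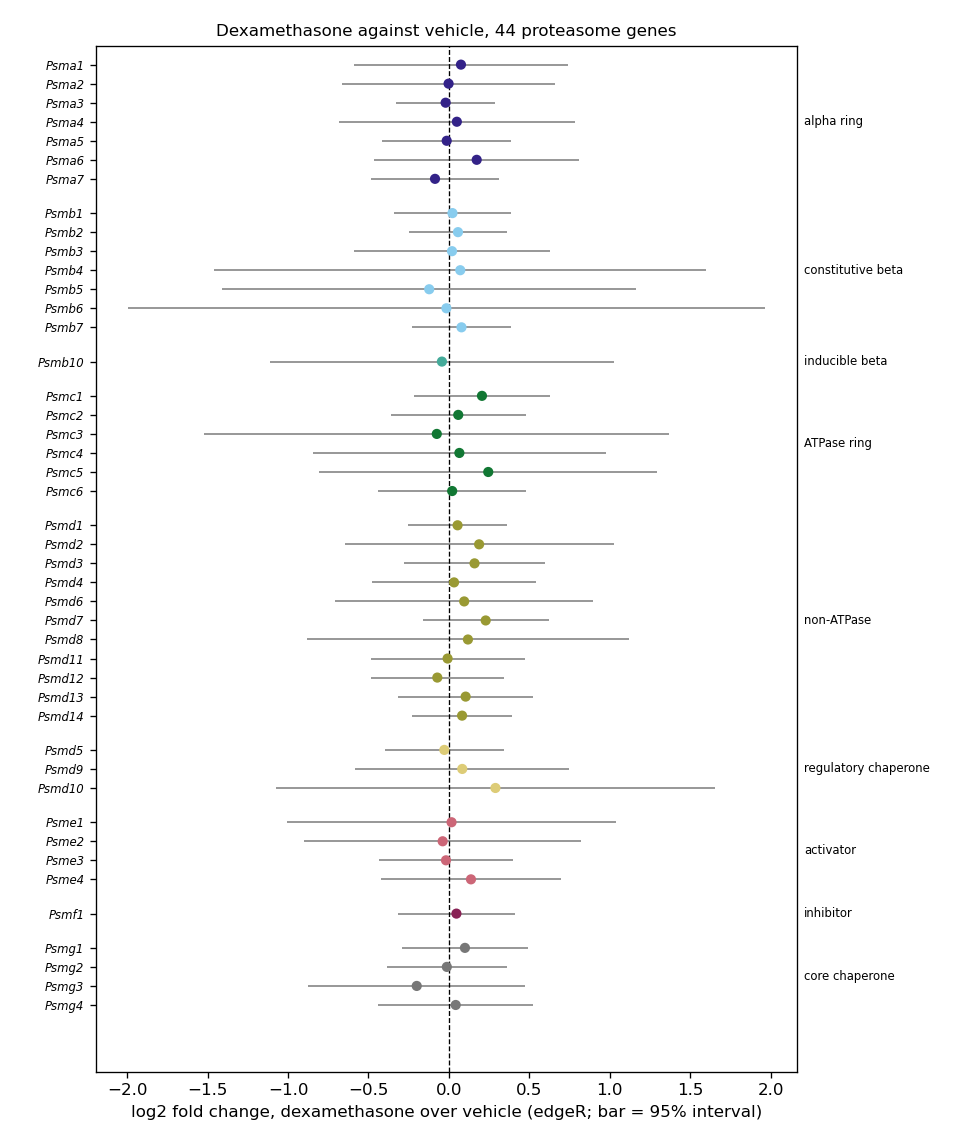
Log2 fold change, dexamethasone over vehicle (horizontal axis), of each proteasome gene, grouped by role. Points are edgeR estimates and bars 95% intervals from 2 libraries per group, in the fit without the replicate number. Every interval includes 0, and the widest is that of Psmb6, from -1.996 to 1.96.

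Taken as a whole, the members made up 0.254% (95% Wilson interval 0.251% to 0.256%) of the counts of vehicle replicate 1 and 0.255% (0.254% to 0.257%) of vehicle replicate 2. In the dexamethasone libraries the share was 0.258% (0.256% to 0.259%) for replicate 1 and 0.262% (0.261% to 0.263%) for replicate 2. Both dexamethasone shares were the higher ones, by 0.00531 percentage points between the group means, and 0.00170 without Psme4, when the shares of the groups overlapped (0.200% and 0.209% against 0.201% and 0.211%). Summed as scaled CPM the groups also overlapped, at 2670 and 2362 in vehicle and 2789 and 2485 in dexamethasone. The intervals cover counting error only. Psme4 alone supplied between 18.1% and 21.8% of the members' counts.

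Every dexamethasone library exceeded every vehicle library in 8 members (18.2%), beside 15.0% of all genes, and lay below in 1 (2.27%), beside 12.9%. The 8 were Psmb2, Psmb7, Psmc1, Psmd1, Psmd3, Psmd7, Psmd14 and Psmg1, and the 1 was Psma3. This count rested on the scaling: with DESeq2 size factors it was 6 above and 1 below, with upper quartile scaling 3 and 1, and by library size only 1 and 2. The log2 fold change was above 0 in 29 members and below 0 in 15, beside 49.7% of all genes above 0, and by library size only the split was 24 and 20. Within each replicate number, where there is 1 library per group, the median log2 ratio of dexamethasone to vehicle was 0.05 in both, and 23 members were above 0 in both and 6 below 0 in both. Of the 13285 genes tested, 4544 were above 0 in both and 4505 below 0 in both.

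**Figure D3:**
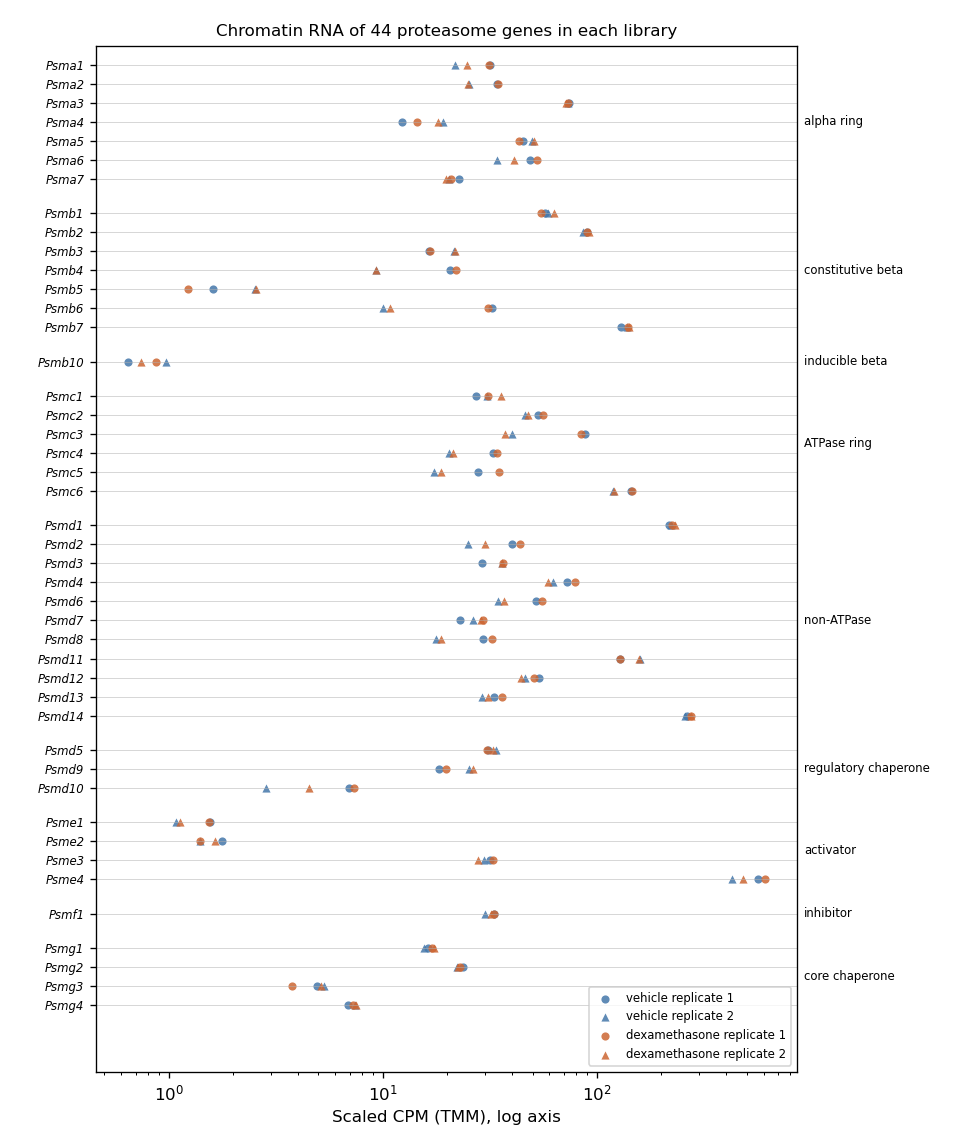
Scaled CPM on a log axis (horizontal) of each proteasome gene in each of the 4 libraries, by role; colour gives the group and shape the replicate number. In 23 genes both replicate 1 libraries are the higher, as in Psmb6, and in 10 both replicate 2 libraries. In Psmb6 the replicate 1 libraries lie at 32.2 and 30.9 and the replicate 2 libraries at 10.0 and 10.8.

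In the alpha ring, 7 of 8 named genes were members, and 0 of the 7 passed the test, with a median log2 fold change of -0.00209. Psma6 had the highest log2 fold change of the ring, from 48.9 and 34.2 scaled CPM with vehicle and 52.5 and 41.1 with dexamethasone. The groups overlapped, and its log2 fold change was 0.17 (SE 0.241, 95% interval -0.47 to 0.81). Psma7 had the lowest, from 22.7 and 20.4 scaled CPM with vehicle and 20.9 and 19.7 with dexamethasone. Its libraries overlapped too, and the log2 fold change was -0.09 (SE 0.151, 95% interval -0.49 to 0.31). Psma3 was the steadiest member of the ring, between 71.8 and 73.9 scaled CPM in all 4 libraries. The alpha subunit gene that did not meet the minimum was Psma8, which encodes the testis form of an alpha subunit. It had at most 1 count in any library. The log2 fold changes of the other alpha genes were 0.07 for Psma1, -0.00209 for Psma2, -0.02 for Psma3, 0.05 for Psma4 and -0.01 for Psma5.

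Among the 7 constitutive beta genes, 0 passed the test and the median log2 fold change was 0.02. Psmb7, which encodes the subunit with trypsin-like activity, had 130 and 138 scaled CPM with vehicle and 140 and 142 with dexamethasone, or 134 ± 5.59 against 141 ± 1.12 (SD, n = 2 each). Both dexamethasone libraries were above both vehicle libraries, but only narrowly, and the log2 fold change was 0.08 (SE 0.116, 95% interval -0.23 to 0.39). Psmb5, whose subunit has the chymotrypsin-like activity, had far fewer counts, with 30 and 96 counts in vehicle and 37 and 238 in dexamethasone. That is 1.61 and 2.53 scaled CPM with vehicle and 1.23 and 2.55 with dexamethasone, so the groups overlapped. Its log2 fold change was -0.12 (SE 0.485, 95% interval -1.41 to 1.16). Psmb6, the gene of the caspase-like subunit, had 32.2 and 10.0 scaled CPM with vehicle and 30.9 and 10.8 with dexamethasone. Here the replicate 1 libraries were high and the replicate 2 libraries low in both groups, and the log2 fold change was -0.02 (SE 0.748, 95% interval -1.996 to 1.96). The remaining constitutive beta genes, Psmb1, Psmb2, Psmb3 and Psmb4, had log2 fold changes of 0.02, 0.06, 0.02 and 0.07.

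The inducible beta subunits replace the constitutive active subunits in the immunoproteasome, which interferon induces in many cells. They were barely represented. Psmb10 was the only member among them, with 12 and 37 counts in vehicle and 26 and 69 in dexamethasone, or 0.644 and 0.975 scaled CPM with vehicle and 0.867 and 0.739 with dexamethasone. The groups overlapped, with a log2 fold change of -0.04 (SE 0.404, 95% interval -1.11 to 1.03). Psmb8 had 0, 0, 1 and 4 counts and Psmb9 had 0, 0, 0 and 3 in vehicle 1, vehicle 2, dexamethasone 1 and dexamethasone 2. Psmb11, the thymus form, had 2, 0, 1 and 5. A count of 0 allows up to 3 counts, or 0.161 and 0.0791 scaled CPM in the vehicle libraries, so any difference in these genes was not detectable at this depth. In the reference annotation Psmb10 lies wholly within Gm16156, a gene on the opposite strand, and whether counting used strand is not stated.

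Of the 6 ATPase genes 0 passed, with a median log2 fold change of 0.06. Psmc5 had the highest log2 fold change, from 27.7 and 17.3 scaled CPM with vehicle and 34.8 and 18.6 with dexamethasone. The groups overlapped, with replicate 2 low in both, and the log2 fold change was 0.24 (SE 0.397, 95% interval -0.81 to 1.30). Psmc3 had the lowest, from 87.5 and 40.2 scaled CPM with vehicle and 84.0 and 37.1 with dexamethasone. Its replicate 1 libraries had more than 2 times the level of its replicate 2 libraries in both groups, and the log2 fold change was -0.08 (SE 0.546, 95% interval -1.52 to 1.37). Slc39a13, on the opposite strand, covers 37.0% of the Psmc3 gene in the reference annotation, so reads of the pair may not be told apart if strand was ignored. The other ATPase genes, Psmc1, Psmc2, Psmc4 and Psmc6, were at 0.21, 0.06, 0.06 and 0.02.

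The 11 non-ATPase subunits of the regulatory particle had the highest median of any role, at 0.09, and 0 of 11 passed. Both dexamethasone libraries exceeded both vehicle libraries in 4 of them (36.4%), beside 15.0% of all genes. This too rested on the TMM scaling. Among all 44 members 3 were so separated with upper quartile scaling and 1 by library size only. Psmd7, a scaffold partner of the deubiquitinating subunit, had 23.0 and 26.4 scaled CPM with vehicle and 29.3 and 28.6 with dexamethasone, or 24.7 ± 2.36 against 28.9 ± 0.439 (SD, n = 2 each). The groups did not overlap, and the log2 fold change of 0.23 (SE 0.148, 95% interval -0.16 to 0.62) had an unadjusted p of 0.189 in edgeR. Psmd14, the deubiquitinating subunit itself, had 263 and 257 scaled CPM with vehicle and 275 and 275 with dexamethasone. Its groups were separate as well, by less than its standard error, with a log2 fold change of 0.08 (SE 0.117, 95% interval -0.23 to 0.39). Psmd12, a subunit of the lid, had the lowest log2 fold change of the role, from 53.6 and 46.0 scaled CPM with vehicle and 50.5 and 44.2 with dexamethasone. The groups overlapped at -0.07 (SE 0.156, 95% interval -0.48 to 0.34). The other non-ATPase members (Psmd1, Psmd2, Psmd3, Psmd4, Psmd6, Psmd8, Psmd11 and Psmd13) lay between -0.01 and 0.19, and among them Psmd4 encodes a ubiquitin receptor and Psmd1 and Psmd2 the large scaffolds.

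Psmd5, Psmd9 and Psmd10 encode chaperones that assemble the regulatory particle, and 0 of the 3 passed. Psmd10, also known as gankyrin, had the highest log2 fold change of all members. It had 6.92 and 2.85 scaled CPM with vehicle and 7.31 and 4.53 with dexamethasone. Replicate 2 was the lower in each group and the groups overlapped, and the log2 fold change was 0.29 (SE 0.516, 95% interval -1.08 to 1.65). Within replicate 1 the log2 ratio of dexamethasone to vehicle was 0.08 and within replicate 2 it was 0.67, each from 1 library per group. The sign of the log2 fold change differed with the library left out. Each such fit leaves the replicate numbers unequal between the groups, so it cannot separate them from dexamethasone. Dropping vehicle replicate 1 gave 1.05 and dropping vehicle replicate 2 gave -0.23. Dropping dexamethasone replicate 1 gave -0.0841, and dropping dexamethasone replicate 2 gave 0.60. Psmd5 had 30.8 and 33.7 scaled CPM with vehicle and 30.7 and 32.7 with dexamethasone, and these overlapped with a log2 fold change of -0.03 (SE 0.140, 95% interval -0.40 to 0.34). Psmd9 was at 0.08, and 76.1% of its span in the reference annotation is shared with Gm26745 on the opposite strand.

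The activators cap the core in place of the regulatory particle, and 0 of the 4 passed. Psme4, which encodes a large nuclear activator, had the most counts of any member. It had 565 and 429 scaled CPM with vehicle and 609 and 483 with dexamethasone, or 497 ± 96.2 against 546 ± 89.5 (SD, n = 2 each). Replicate 1 was the higher in each group and the groups overlapped, with a log2 fold change of 0.14 (SE 0.211, 95% interval -0.42 to 0.70). Psme1 and Psme2, whose products form the interferon-inducible activator, had 29 to 154 counts per library. Psme2 had 1.77 and 1.40 scaled CPM with vehicle and 1.40 and 1.65 with dexamethasone, overlapping at -0.04 (SE 0.325, 95% interval -0.90 to 0.82). Psme1 was at 0.02 and Psme3, of the related nuclear activator, at -0.02. Psmf1, the inhibitor or regulator, had 33.0 and 30.1 scaled CPM with vehicle and 33.2 and 32.0 with dexamethasone. Its groups overlapped and its log2 fold change was 0.05 (SE 0.138, 95% interval -0.32 to 0.41).

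The chaperones that assemble the core particle, Psmg1 to Psmg4, gave 0 calls of 4 and a median log2 fold change of 0.01. Psmg1 had 16.3 and 15.6 scaled CPM with vehicle and 16.9 and 17.3 with dexamethasone. The groups were separate by a small margin, at 0.10 (SE 0.147, 95% interval -0.29 to 0.49). Psmg3 had 4.94 and 5.32 scaled CPM with vehicle and 3.77 and 5.13 with dexamethasone. Dexamethasone replicate 1 lay below both vehicle libraries and dexamethasone replicate 2 between them, and the log2 fold change was -0.20 (SE 0.255, 95% interval -0.87 to 0.47). Gm26938, on the same strand, shares 85.5% of the Psmg3 span in the reference annotation, and how reads of both were counted is not stated. Psmg2 and Psmg4 were at -0.01 and 0.04.

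The libraries of the members differed more often by replicate number than by group. In 23 of 44 members (52.3%) replicate 1 exceeded replicate 2 in every pairing of libraries, beside 31.8% of all genes. In 10 (22.7%) the reverse held, beside 32.1%. These counts used TMM factors of 0.950 and 1.08 in vehicle and 0.924 and 1.05 in dexamethasone, and were not repeated under other scalings. The members' median log2 ratio of replicate 2 to replicate 1 was -0.12 in vehicle and -0.07 in dexamethasone. Their unscaled share of all counts was slightly higher in replicate 2. It was 0.254% and 0.255% in vehicle and 0.258% and 0.262% in dexamethasone. By role, 5 of 6 ATPases, 6 of 11 non-ATPase subunits, 4 of 7 alpha subunits and 2 of 7 constitutive beta subunits were higher in replicate 1. The log2 ratio of replicate 2 to replicate 1 in vehicle and the same ratio in dexamethasone, which share no library, had Pearson's r of 0.897 and Spearman's rho of 0.873 across the 44 genes. These genes are not independent replicates, and each ratio rests on 1 library against 1, with no test. The same correlations were not computed over all genes tested, so they cannot be called particular to these genes. The summed level of the myotube markers was also higher in replicate 1, at 123368 against 42934 scaled CPM in vehicle and 118842 against 41877 in dexamethasone, and its part in the ratios was not tested. The labels do not say what the replicate number stands for.

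**Figure D4:**
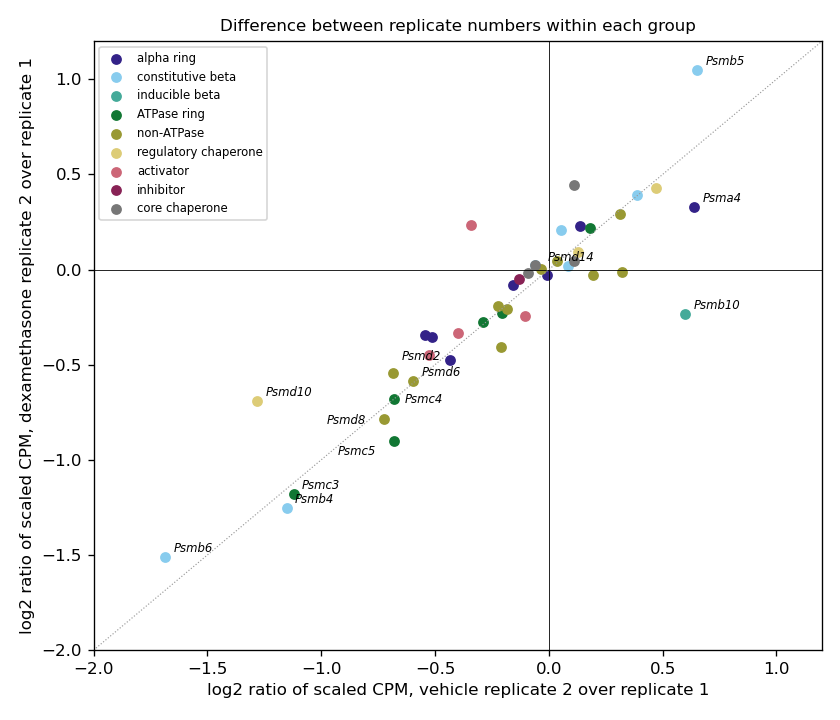
Log2 ratio of scaled CPM of replicate 2 to replicate 1 in vehicle (horizontal axis) against the same ratio in dexamethasone (vertical axis), 1 point per proteasome gene, coloured by role; the dotted line marks equal ratios. Psmb6, Psmb4 and Psmc3 lie below -1 on both axes, and Psmb5 lies at 0.65 and 1.05.

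The genes behind this pattern were singled out after their values were seen. In 9 members replicate 2 was lower by more than 0.5 on the log2 scale in both groups: Psmb4, Psmb6, Psmc3, Psmc4, Psmc5, Psmd2, Psmd6, Psmd8 and Psmd10. In 1 member, Psmb5, it was higher by more than 0.5 in both. The same 2 counts were not made over all genes tested, so they cannot be called particular to proteasome genes. Of all genes, 31.8% were higher in both replicate 1 libraries and 32.1% in both replicate 2 libraries. The log2 ratio of replicate 2 to replicate 1 was -1.69 in vehicle and -1.51 in dexamethasone for Psmb6, and -1.15 in vehicle and -1.25 in dexamethasone for Psmb4. For Psmc3 it was -1.12 in vehicle and -1.18 in dexamethasone, and for Psmb5 it was 0.65 in vehicle and 1.05 in dexamethasone. The constitutive beta genes did not shift together: Psmb4 and Psmb6 were lower in replicate 2, Psmb5 was higher, and Psmb2 and Psmb7 stayed within 0.09 of 0 in both groups.

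The spans of these 9 genes in the reference annotation ran from 2.49 to 12.4 kb. The upper end was set by these 9 genes, so longer members could not be among them. Of the 22 members up to that span, 9 were these genes. The 22 longer members had ratios between -0.52 and 0.47 in either group. Among genes in the same range of spans, Psmb5, with ratios above 0 in both groups, spans 3.90 kb and Psma4, with 0.64 in vehicle and 0.33 in dexamethasone, spans 7.24 kb. Across the 44 members Spearman's rho of the mean ratio was 0.209 with the span and -0.180 with the exonic share of the span, both given as descriptions.

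The promoters of 4 of these genes are shown because they include the members lowest and highest in replicate 2 relative to replicate 1, namely Psmb4, Psmb6 and Psmd10 higher in replicate 1, and Psmb5 higher in replicate 2. The windows are 300 bases each, 250 before and 50 after the start, 5′ to 3′ on the gene's strand, from RefSeq on GRCm38.p6. The window of Psmb4 lies at chr3:94886909-94887208 (minus strand) and that of Psmb6 at chr11:70525107-70525406 (plus strand). The window of Psmb5 lies at chr14:54617946-54618245 (minus strand) and that of Psmd10 at chrX:140956662-140956961 (minus strand). Capitals mark, on either strand, matches to TGANNNNGC, CCAAT and AGAACA. TGANNNNGC is a loose pattern searched here for the antioxidant response element, which the proteasome regulator Nfe2l1 is known to bind, and a match need not be such an element. CCAAT is the box bound by NF-Y, and AGAACA is the hexamer that the glucocorticoid response element repeats.
Psmb4: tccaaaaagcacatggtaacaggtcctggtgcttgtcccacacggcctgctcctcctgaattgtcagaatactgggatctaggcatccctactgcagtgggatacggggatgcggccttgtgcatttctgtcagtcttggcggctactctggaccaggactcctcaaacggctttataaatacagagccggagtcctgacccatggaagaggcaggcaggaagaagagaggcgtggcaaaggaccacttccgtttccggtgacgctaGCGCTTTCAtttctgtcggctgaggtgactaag
Psmb6: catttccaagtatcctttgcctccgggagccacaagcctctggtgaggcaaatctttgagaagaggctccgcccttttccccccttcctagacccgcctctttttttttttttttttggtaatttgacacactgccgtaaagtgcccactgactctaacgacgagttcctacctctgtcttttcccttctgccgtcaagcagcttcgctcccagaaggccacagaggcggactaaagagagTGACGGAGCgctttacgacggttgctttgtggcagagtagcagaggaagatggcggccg
Psmb5: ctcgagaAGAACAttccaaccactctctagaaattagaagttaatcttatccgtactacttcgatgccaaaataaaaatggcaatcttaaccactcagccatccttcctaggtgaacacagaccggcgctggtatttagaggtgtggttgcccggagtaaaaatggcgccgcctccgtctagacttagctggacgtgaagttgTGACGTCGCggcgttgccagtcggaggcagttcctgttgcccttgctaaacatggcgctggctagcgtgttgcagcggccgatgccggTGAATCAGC
Psmd10: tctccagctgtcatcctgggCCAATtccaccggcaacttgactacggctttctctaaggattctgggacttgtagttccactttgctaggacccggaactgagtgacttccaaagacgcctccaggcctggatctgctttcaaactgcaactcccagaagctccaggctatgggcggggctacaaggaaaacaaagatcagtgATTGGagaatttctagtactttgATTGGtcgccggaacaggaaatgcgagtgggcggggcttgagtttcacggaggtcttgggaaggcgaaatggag

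Psmb4 and Psmb6 each held 1 match to TGANNNNGC, as GCGCTTTCA on the reverse strand in the first and TGACGGAGC in the second. Psmb5 held 2, TGACGTCGC and TGAATCAGC, and 1 match to AGAACA. Psmd10 held none of those and 3 matches to CCAAT, 2 of them as ATTGG. These windows were picked by the ratios of their genes, and the part of any of these patterns in the ratios was not tested. Of the 44 members, 37 had a promoter in the table; the others were Psmb1, Psmb2, Psmb7, Psmc3, Psmd3, Psmd7 and Psmg2. TGANNNNGC was found in 20 of 37 (54.1%), beside 45.0% of 27025 genes. CCAAT was found in 12 (32.4%), beside 41.1%, and AGAACA in 6 (16.2%), beside 21.3%. The full palindromic glucocorticoid response element, which contains AGAACA, was found in 0 of 37, beside 0.0111% of genes. A match is a description of the letters, not a binding site.

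Levels were compared between genes per kilobase of exon. Psmd14 was highest, at 94.8 ± 3.22 scaled CPM per kilobase (SD over 4 libraries), followed by Psmb2 at 74.2 ± 2.15 and Psme4 at 62.2 ± 9.67. These neighbours were apart for the first 2, and Psmb2 and Psme4 differed by little more than the SD of Psme4. The lowest members were Psmb10 at 0.473 ± 0.0851, Psme1 at 0.599 ± 0.116, Psme2 at 0.881 ± 0.106 and Psmg3 at 1.66 ± 0.241. Psmb10 and Psme1 were within about 1 SD of each other. Although the core particle holds its subunits in equal numbers, the constitutive beta genes ran from 2.20 ± 0.738 for Psmb5 to 74.2 ± 2.15 for Psmb2, and the alpha genes from 6.72 ± 1.34 for Psma4 to 35.8 ± 2.71 for Psma5. The medians were 9.24 for the alpha ring, 11.2 for the constitutive beta ring, 16.9 for the ATPases, 16.0 for the non-ATPase subunits and 3.68 for the chaperones of the regulatory particle.

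The order depended on the length used. Per kilobase of the whole gene, introns included, Psmb6 was highest at 8.43 and Psmd14 fell to rank 16 at 3.01. Per kilobase of the whole gene the alpha ring had a median of 2.20, the constitutive beta ring 2.45, the ATPases 3.38 and the non-ATPase subunits 3.01, a narrower range than per kilobase of exon. Across the members the mean scaled CPM had a Spearman's rho of 0.756 with the span of the gene and of 0.510 with its exon length, as a description. Psmb5, Psmb10, Psmd9, Psme1 and Psme2 stayed at rank 38 or lower on both scales. The sources used here do not state whether intron reads were counted. Pseudogenes of Psmb5, Psmb6 and Psmb7 are in the reference annotation, and how reads that match both a gene and its copy were counted is not stated. The levels of these 3 are therefore uncertain. Copies of other members are not listed here, so the other levels are not shown to be free of this.

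**Figure D5:**
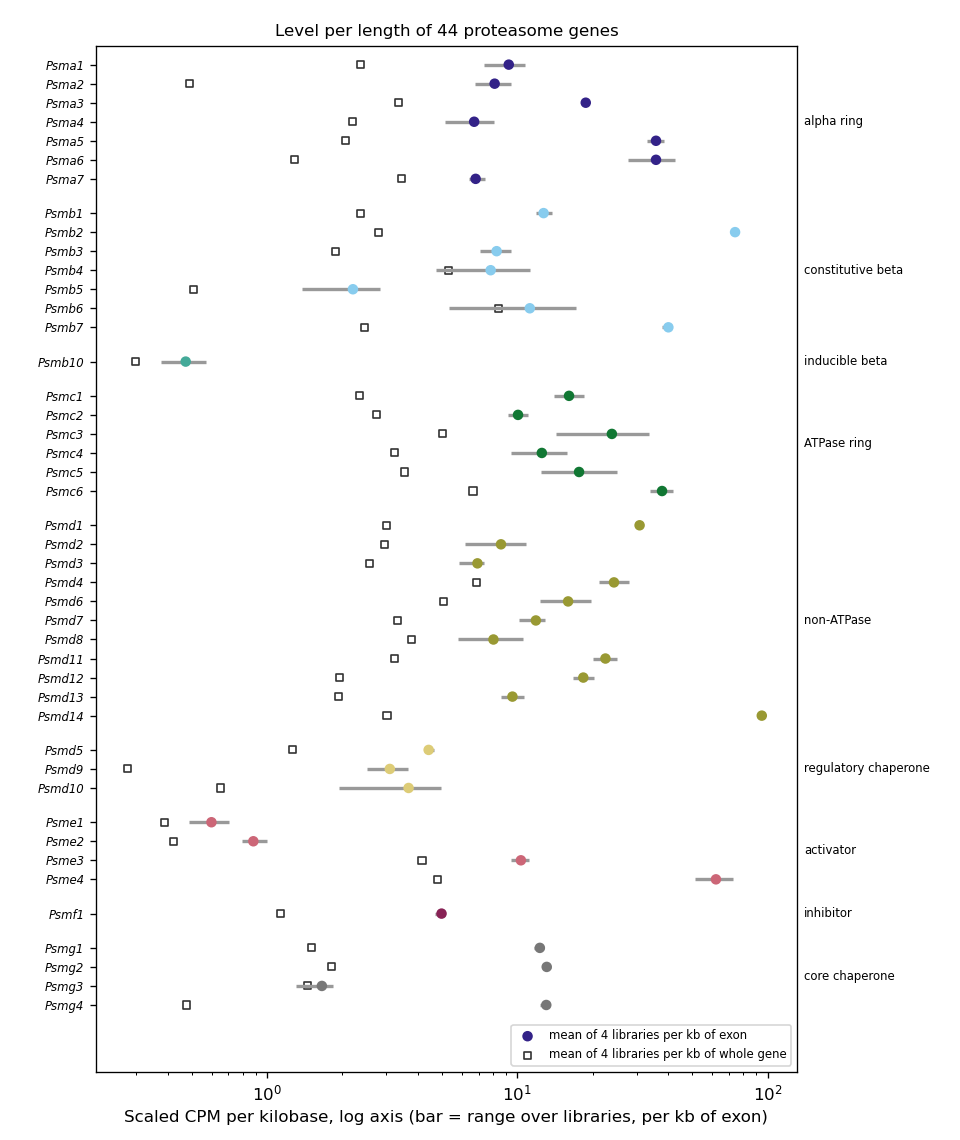
Level of each proteasome gene by role as scaled CPM per kilobase on a log axis; filled points are means of the 4 libraries per kilobase of exon with bars from the lowest to the highest library, and open squares are means per kilobase of the whole gene. Psmd14, Psmb2 and Psme4 lead per kilobase of exon, while Psmb5, Psmb10, Psmd9, Psme1 and Psme2 are low on both scales.

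Other genes of the pathway were read from a list of 29, which includes proteasome-bound proteins, regulators and shuttling factors. Of these 27 were tested, and Paaf1 was not analysed here. Uba1, the main ubiquitin-activating enzyme, was listed at 0 in all 4 libraries, while Uba6 had 1237 to 5105 counts. Whether the 0 of Uba1 reflects the counting or the cells was not tested. Of the 27, 0 passed an adjusted p of 0.05, and 1 had an unadjusted p under 0.05, beside 5.78% of all genes. With the replicate number as a block in edgeR, 2 passed (Zfand5 and Ubqln4), beside 12.7%, and 6 had an unadjusted p under 0.05, beside 25.7%. In counts simulated with the shift between replicate numbers, 37 of 207 calls with the block were false, so a pass there is weak. Their median log2 fold change was -0.02, with 11 above 0 and 16 below. Both dexamethasone libraries were above both vehicle libraries in 3 (11.1%; Pomp, Txnl1 and Zfand5), beside 15.0% of all genes. They were below in 4 (14.8%; Ddi2, Fbxo7, Ipo9 and Ubqln4), beside 12.9%.

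The 1 gene was Zfand5, which encodes a zinc finger protein that binds the proteasome and is tied to muscle atrophy. It had 1851 and 2689 counts in vehicle and 5017 and 10980 in dexamethasone. That is 99.3 and 70.9 scaled CPM with vehicle and 167 and 118 with dexamethasone, or 85.1 ± 20.1 against 142 ± 35.2 (SD, n = 2 each). Every dexamethasone library exceeded every vehicle library, although within each group replicate 1 was the higher. The log2 fold change was 0.74 (SE 0.260, 95% interval 0.06 to 1.43), with an unadjusted p of 0.0394 and an adjusted p of 0.785 in edgeR, so it did not pass over all genes. With the replicate number as a block it was 0.74 (SE 0.0557), with an adjusted p of 0.000507 in edgeR. Nfe2l1, the transcription factor that raises proteasome genes when the protease is inhibited, had 201 and 151 scaled CPM with vehicle and 227 and 150 with dexamethasone. Its groups overlapped, with a log2 fold change of 0.10 (SE 0.266, 95% interval -0.60 to 0.80). Pomp, the maturation factor of the core particle, was at 0.22 (SE 0.168, 95% interval -0.23 to 0.66).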

How the data were processed

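Counts are raw reads per gene in one table deposited by the authors for all 4 libraries; per the submitters' processing notes, which give no roles or order, TopHat2 2.0.13, SAMtools 1.1, HTSeq 0.6.1, DESeq2 1.18.1 and the build mm9 were used. The annotation, counting mode and strand setting are not given in the sources used here, and the labels' protocols name both a stranded total RNA kit and a stranded mRNA kit. Groups come from the sample titles. Rows repeating a symbol and all counts (51 of 23333) were dropped, none of them a member. Genes were filtered with filterByExpr (minimum count 10, total 15), which all 44 members passed, and tested with edgeR 4.0.16 in R 4.3.3 (quasi-likelihood, TMM, group only, two-sided, Benjamini-Hochberg over 13285 genes, threshold 0.05, 2 residual and 2.56 prior degrees of freedom). Standard errors and intervals derive from the F statistic. Alternatives were other scalings and filters, DESeq2 1.42.0, limma-voom (limma 3.58.1), the replicate number as a block, an adjusted p under 0.1 and leaving out each library. The members and lists were chosen with earlier results of these data known. Values are given for the highest and lowest log2 fold change in each role, inducible beta genes, and pathway genes with an unadjusted p under 0.05, with Nfe2l1 and Zfand5. Lengths came from GENCODE M21 (GRCm38), found for all 44. The script was tested on simulated counts, with genes changed by 1.5, 2 and 4 fold. With the shift between replicate numbers of these data, edgeR by group alone recovered 0 of 67, 0 of 66 and 0 of 66 at an adjusted p under 0.05. With the replicate block it recovered 51, 53 and 66 of them, with 37 false calls among 207. Without such a shift, edgeR by group alone recovered 50 of 67, 59 of 66 and 61 of 62. Single values of some genes of the pathway list are not reported here.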

Additional observations from a re-analysis of the deposited data

How the results depend on the processing

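No alternative put a member past an adjusted p of 0.05: the count was 0 under each scaling, filter and tool, with the replicate block, at an adjusted p under 0.1 and without each library. No label ties a replicate number to a batch or day, and pairing was not established from 2 pairs; across the 44 members the difference between replicate numbers in one group followed that in the other (r = 0.897). With the replicate block, members with an unadjusted p under 0.05 rose from 0 to 6, beside 25.7% of all genes: Psma6, Psmc1, Psmc5, Psmd2, Psmd7 and Psme4, all above 0, with edgeR adjusted p from 0.103 to 0.177. The block called 12.7% of all genes, and among the pathway genes Zfand5 passed at 0.74 (edgeR adjusted p 0.000507) and Ubqln4 at -0.30 (edgeR adjusted p 0.0405). In the simulated counts with the shift of these data, 37 of the 207 calls with the block were false. Ddi2, Pomp, Txnl1 and Uchl5 had an unadjusted p under 0.05 with the block and edgeR adjusted p from 0.0577 to 0.132.

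The number of members with both dexamethasone libraries above was 3 under upper quartile scaling and 1 by library size only, and the number below was 2 by library size only and 0 with no filter. In the fits without 1 library, where 1 library stands alone and is assumed to vary like the others, the numbers were 14 to 25 above and 5 to 9 below, where fewer libraries have to separate, and the median log2 fold change ran from -0.04 (without vehicle replicate 2) to 0.12 (without vehicle replicate 1). Members above 0 ran from 19 (without vehicle replicate 2) to 31. The summed share differed by 0.00170 percentage points without Psme4. The median level per kilobase was 11.5 by exon, 16.0 by longest transcript and 2.41 by the whole gene, the last chosen after seeing the data. Over 18 single genes with all libraries, 141 alternative values kept direction and side of the threshold, 1 came to pass (Zfand5, above) and 2 changed sign: Psme2 turned to 0.0173 with limma-voom and 0.000583 with the block. The cause of these changes was not tested. A fit without 1 library leaves the replicate numbers unequal between the groups, so its estimate mixes replicate number with dexamethasone. Without 1 library, 13 of the 18 changed sign: Psma6 ran from -0.0573 to 0.45, Psmb10 from -0.29 to 0.32, Psmb5 from -0.75 to 0.29, Psmc3 from -0.77 to 0.59, Psmc5 from -0.27 to 0.63, Psmd10 from -0.23 to 1.05, Psmd12 from -0.17 to 0.0425, Psmd5 from -0.0905 to 0.0455, Psme2 from -0.20 to 0.13, Psme4 from -0.0413 to 0.35, Psmf1 from -0.0109 to 0.11, Psmg3 from -0.45 to 0.00401 and Nfe2l1 from -0.22 to 0.37.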
